A study of Drosophila melanogaster with 24 samples.

Results

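RNA levels were compared between heads of adult female Drosophila melanogaster in which neurons expressed FLAG-tagged Ataxin-2 and heads of the driver-only control. The members are the 8 Input libraries of those genotypes, 4 labelled elav>Atx2-3xFLAG and 4 labelled elav>Gal4, out of 24 libraries in the series, and every gene with enough counts to be tested, which was 5256 of 17753 gene symbols. The elav>Gal4 control carried the neuronal driver with no tagged protein. Atx2-3xFLAG is a transgene for Ataxin-2 with a triple FLAG tag, so that both genotypes carry the elav driver and differ in the transgene that it switches on. A further 4 Input libraries came from elav>Nab2-FLAG heads, in which the same driver expresses tagged Nab2, another RNA-binding protein. These served to estimate the spread and as a second comparison.

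The series was made to find RNAs that associate with Nab2 and Atx2 in brain neurons, by immunoprecipitation of the tagged protein and sequencing (RIP). Each lysate came from 300 heads, fixed in formaldehyde, ground and cleared of exoskeletal debris and insoluble material, and the labels define Input as 20% of the soluble supernatant volume. An Input library is thus soluble RNA from a cleared lysate of whole heads. It mixes neurons, eyes, fat body, muscle, epidermis and blood cells, while the driver is neuronal. How much RNA of each tissue was lost in clearing was not tested. Each group was 4 biological replicates per the series' design text. The age, the rest of the genetic background and the hour of collection are not given in the sources used here.

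Ataxin-2 is a conserved cytoplasmic RNA-binding protein. It binds poly(A)-binding protein, is found in ribonucleoprotein granules, and acts on both the stability and the translation of messenger RNAs. In the fly brain it is known for its part in circadian rhythm, where it promotes translation of the clock protein Period. Its human counterpart carries the polyglutamine tract that is expanded in a form of spinocerebellar ataxia.

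Levels are given as CPM, which are counts brought to a common library size after TMM scaling, and differences as log2 differences, Atx2-3xFLAG minus control, tested with edgeR's quasi-likelihood F test, with Benjamini-Hochberg adjustment over the 5256 genes and a threshold of 0.05. Total counts were 665341 to 877212 in control and 601479 to 1091678 in Atx2-3xFLAG libraries, and mitochondrially encoded genes took 25.1% to 33.9% and 26.2% to 33% of them. Control replicate 4 stood apart. On the first dimension of a multidimensional scaling plot it lay at -0.41, against -0.93, -0.82 and -0.99 for the other control libraries, 0.41 to 0.58 for Atx2-3xFLAG and 0.20 to 0.49 for Nab2-FLAG. List counts without it are given below where they move by over 1.5 times or the change bears on the text, as are values of single genes. Atx2 RNA itself was at 250.5, 207, 218 and 216 CPM in the 4 control libraries, in order of replicate, and at 214, 254, 239 and 239 CPM with the transgene. The groups overlapped, and the log2 difference was 0.08 (SE 0.11, edgeR adjusted p = 0.689), so that no increase in Atx2 RNA was detectable in whole heads at this depth. Genes of the germline and of males, which a clean sample of female heads should lack, reached no more than 14 and 5 counts in any library of the 8, and none of them passed the filter.

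With Atx2-3xFLAG, 518 genes were higher (9.86% of those tested) and 464 were lower (8.83%), together 18.7%. The higher genes moved further: 203 of them differed by over 2-fold and 57 by over 4-fold, against 74 and 5 of the lower genes. The median log2 difference was 0.83 among higher and -0.69 among lower genes, against -0.01 over all genes tested. In 393 of the higher and 355 of the lower genes the 4 Atx2-3xFLAG values lay wholly outside the control values. Without that condition on the test, non-overlap was seen for 507 higher genes (9.65%) and 472 lower genes (8.98%). The share of genes called was much the same on every chromosome arm, from 17.4% of 69 genes on chromosome 4 to 20.6% of 927 genes on 2L, and was 17.6% of 941 genes on X.

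The split between higher and lower genes rests on the scaling. With library size alone, which takes the most abundant RNAs at face value, the median of all genes moved to 0.25, 1016 genes were higher and 163 lower, and the share of higher genes among the calls went from 52.7% to 86.2%. Differences are therefore read relative to the median gene. Without control replicate 4, 578 genes were higher and 528 lower.

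**Figure D1:**
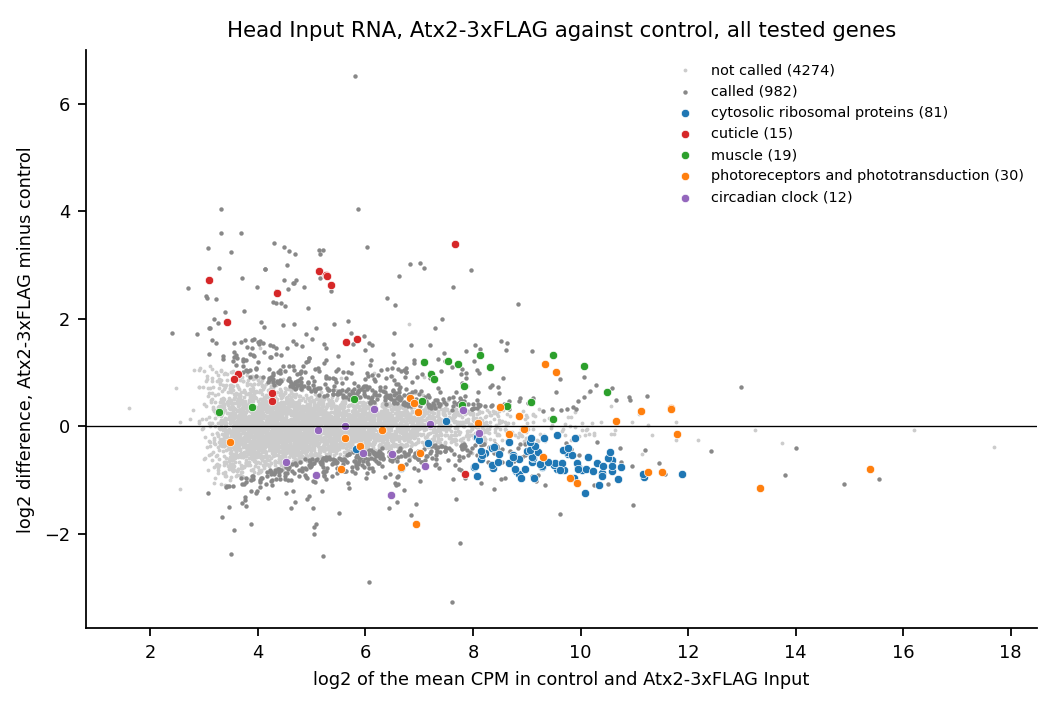
Each point is 1 of the 5256 tested genes, with the log2 of its mean CPM over the 8 libraries on the x axis and its log2 difference, Atx2-3xFLAG minus control, on the y axis; dark grey marks the 982 genes called at an adjusted p under 0.05 and colours mark 5 gene lists. Cuticle and muscle genes lie mostly above 0, ribosomal protein genes lie mostly below it at high CPM, and photoreceptor genes lie on both sides.

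Genes of the cytosolic ribosome fell with Atx2-3xFLAG. Of 81 tested ribosomal protein genes, which code for the protein part of the translating ribosome, 71 fell and 0 rose, with a median log2 difference of -0.68. Among all genes 8.83% were lower. Together they took 7.19%, 6.79%, 7.30% and 7.33% of all counts in the 4 control libraries and 4.99%, 5.14%, 5.68% and 5.30% in the 4 Atx2-3xFLAG libraries, shares that use no TMM scaling. RpS20, a small-subunit protein (chr3R:20822181-20823356, Release 6 assembly, as for all positions here), was at 1535, 1432, 2001 and 1153 CPM in control and at 716, 633, 595 and 633 CPM with Atx2-3xFLAG. Every tagged library was below every control library, and the log2 difference was -1.25 (SE 0.15, edgeR adjusted p = 1.05e-06). RpLP2, an acidic protein of the ribosomal stalk (chr2R:16586129-16586732), was at 2009, 1914, 2530.2 and 2309.9 CPM in control and at 930.3, 1183, 1150.1 and 1187 CPM with the transgene. These groups were also fully separated, at a log2 difference of -0.98 (SE 0.11, edgeR adjusted p = 1.2e-09). RpL12, next to the stalk, differed by -0.97 (SE 0.12, edgeR adjusted p = 9.07e-08), and its annotated span overlaps that of RpL39, which was not called at -0.32. RpL37a, a symbol that matched no FlyBase gene, differed by -1.09 (SE 0.18, edgeR adjusted p = 0.000357). The smallest called differences were those of RpS3A at -0.29 and RpS13 at -0.30, and RpL38, at 0.10, was the one tested member above 0. The count of lower members was 70 without control replicate 4 and 50 with library size alone, where the list's median was -0.41 beside the 0.25 of all genes.

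Translation factors moved in both directions. Of 38 tested, 10 fell and 3 rose, against 8.83% and 9.86% of all genes, with a median of -0.22, which turned to 0.04 with library size alone (8 higher and 5 lower). The higher count was 1 without control replicate 1 or 3 or Atx2-3xFLAG replicate 4 and with DESeq2, and 5 without control replicate 4. The elongation factors led the lower side. The gene eEF1alpha1 (chr2R:11891135-11895762), whose product brings aminoacyl-tRNA to the ribosome and which is among the most abundant RNAs of the head, was at 40635, 40377, 48107 and 35599 CPM in control. In Atx2-3xFLAG it was at 18542, 19804, 18348 and 21909 CPM. The groups did not overlap, and the log2 difference was -1.07 (SE 0.12, edgeR adjusted p = 1.77e-09). Its exchange factor subunits fell as well, eEF1beta by 1.16 (SE 0.12, edgeR adjusted p = 1.9e-10) and eEF1gamma by 0.74 (SE 0.10, edgeR adjusted p = 2.28e-07) on the log2 scale. The translocase eEF2 differed by -0.46 (SE 0.11, edgeR adjusted p = 0.00176), a call lost with library size alone. Among initiation factors the eIF3 subunit gene eIF3f1 was at 270.4, 262, 346 and 241 CPM in control and at 181, 137, 139.5 and 177 CPM in Atx2-3xFLAG, again without overlap, a log2 difference of -0.81 (SE 0.13, edgeR adjusted p = 3.28e-06). Laminin-receptor-like sta, the RpSA of the small subunit, was at 4916 ± 939 CPM in control and at 2657 ± 160.3 CPM with the transgene (mean ± SD, n = 4 each), a log2 difference of -0.89 (SE 0.12, edgeR adjusted p = 6.18e-08). Of 10 tested genes of the mitochondrial ribosome, mRpL35 fell at -1.43 (SE 0.38, edgeR adjusted p = 0.00469) and the other 9 did not pass the test. That is near the 8.83% of all genes that were lower.

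Ribosomal protein genes were lower in the other tagged genotype too. Their summed level was 78579.8, 75559, 92558 and 71676 CPM in control, 46402, 49091, 49165 and 50899 CPM in Atx2-3xFLAG and 55659, 58229.7, 62494 and 50999 CPM in Nab2-FLAG libraries. The Atx2-3xFLAG sums lay below all others and the Nab2-FLAG sums below all control sums. Tested directly against Nab2-FLAG, 5 of 81 were lower and 0 higher in Atx2-3xFLAG (background 3.04% and 1.94% of genes), with a median of -0.18.

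**Figure D2:**
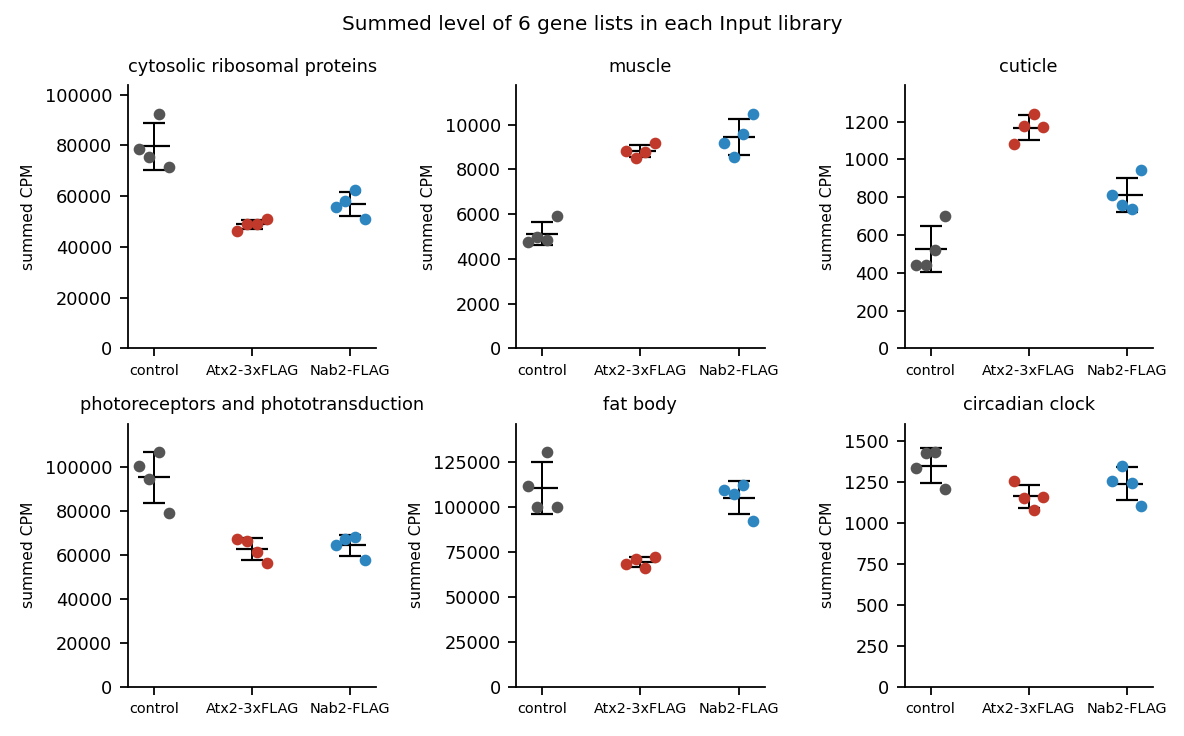
Points are the summed CPM of each gene list in 1 Input library (y axis, from 0) for the 3 genotypes (x axis), and bars give the mean ± SD of 4 libraries. Ribosomal protein and photoreceptor sums are lower and muscle and cuticle sums higher in both tagged genotypes than in control, and the fat body sums of Atx2-3xFLAG lie below those of both other genotypes.

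Genes of the adult cuticle rose with Atx2-3xFLAG. Of 125 cuticle protein genes 15 were expressed enough to be tested, and 11 of them rose and 1 fell, against 9.86% and 8.83% of all genes, with a median log2 difference of 1.94 (1.81 with genes at the floor in control taken at their bound). The Cpr proteins bind chitin in the exoskeleton. Cpr100A (chr3R:30867521-30869184) was at 7.48, 40.6, 10.1 and 83.8 CPM in control and at 314, 378, 371 and 417 CPM with Atx2-3xFLAG. The groups were far apart, although control replicate 4 was the highest of the controls, and the log2 difference was 3.38 (SE 0.46, edgeR adjusted p = 0.000539), or 4.23 without that library. Cpr76Bd had 7.48, 10.8, 6.72 and 7.35 CPM in control and 54.5, 77.9, 63.1 and 52.6 CPM in Atx2-3xFLAG, and Cpr97Eb had 9.97, 8.12, 6.72 and 13.2 CPM in control and 52.0, 63.6, 89.8 and 65.2 CPM with Atx2-3xFLAG. Their log2 differences were 2.88 (SE 0.26, edgeR adjusted p = 9.28e-12) and 2.81 (SE 0.26, edgeR adjusted p = 1.43e-11). Cpr97Ea, which lies beside Cpr97Eb on 3R (chr3R:27083130-27087778), rose to the same extent, by 2.80 (SE 0.30, edgeR adjusted p = 1.37e-08). Acp1, an adult cuticle protein outside the Cpr list (chr2L:7740562-7741537), had 11.2, 16.2, 23.5 and 49.99 CPM in control and 200.2, 173, 229 and 200.1 CPM in Atx2-3xFLAG. It was separated in all libraries, at 3.03 (SE 0.26, edgeR adjusted p = 1.38e-07), and at 3.61 without control replicate 4. The exception was Cpr72Ec, which fell from 302 ± 67.2 to 161 ± 45.4 CPM, a log2 difference of -0.90 (SE 0.18, edgeR adjusted p = 0.00214), means ± SD of 4 libraries. The count was 11 higher and 1 lower without control replicate 4, and 13 and 1 with library size alone. A gene could pass the filter on low counts through the tagged libraries alone, so the tested members may favour higher genes. With no filter 12 of 60 rose and 2 fell, at a median of 1.22. Over all 11283 genes that setting called 613 higher and 391 lower.

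The enzymes that make, modify and harden the cuticle were examined in lists drawn up after these values had been seen, so their counts are descriptions. Of 21 tested genes of chitin metabolism 15 rose and 1 fell (9.86% and 8.83% of all genes), with a median of 1.73. With no filter on low counts 16 of 28 rose and 1 fell, at a median of 1.48. The chitin deacetylase gene serp, needed for the texture of chitin (chr3L:19700977-19708015), had 15.0, 18.9, 23.5 and 55.9 CPM in control and 223, 261, 232 and 209 CPM in Atx2-3xFLAG, a log2 difference of 3.04 (SE 0.26, edgeR adjusted p = 4.76e-07). Its neighbour and fellow deacetylase verm differed by 2.59 (SE 0.29, edgeR adjusted p = 7.37e-05), the chitin synthase kkv by 2.75 (SE 0.45, edgeR adjusted p = 0.00048) and the chitinase Cht5 by 2.67 (SE 0.70, edgeR adjusted p = 0.0248). Cda4, another deacetylase, was at 0, 2.71, 3.36 and 1.47 CPM in control, at or under 3 counts in each library, and at 17.9, 35.0, 27.6 and 14.9 CPM with the transgene, which makes it at least 5.53-fold higher. The chitin-binding protein gene obst-B was in the same position, at least 4.31-fold higher. Idgf6, a chitinase-like growth factor gene, was the member that fell, at -0.66. Of 15 tested tanning and pigment genes 9 rose and 0 fell, against the same background. With no filter on low counts 11 of 21 rose and 0 fell. The laccase gene stw differed by 1.19 (SE 0.15, edgeR adjusted p = 1.57e-08), and the peroxidase gene Pxd had 0, 4.06, 8.39 and 5.88 CPM in control and 37.5, 57.2, 42.7 and 35.4 CPM in Atx2-3xFLAG, without overlap and at 3.26 (SE 0.37, edgeR adjusted p = 2.44e-09). The summed chitin list was at 1102, 1082, 1088 and 1182 CPM in control and at 1958, 2333, 2225 and 1949.6 CPM in Atx2-3xFLAG libraries, and at 1897 to 2343 CPM in Nab2-FLAG. Both tagged genotypes thus lay above all controls. Per the labels the homogenates were strained to remove exoskeletal debris, and what part differences in that step had in these genes was not tested.

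Most muscle genes rose. Of 19 tested genes of the contractile apparatus 16 rose and 0 fell, against 9.86% and 8.83% of all genes, with a median log2 difference of 0.74. Mlc2, a myosin light chain (chr3R:30171438-30174551), was at 328, 380.1, 348 and 588 CPM in control and at 987, 1032, 1029 and 1067 CPM in Atx2-3xFLAG. The tagged libraries were tight and all above control, where replicate 4 was highest, and the log2 difference was 1.32 (SE 0.14, edgeR adjusted p = 1.99e-08). Paramyosin (Prm, chr3L:8732858-8745310) was at 132, 143, 176 and 191 CPM in control and 383, 408, 393 and 414 CPM with Atx2-3xFLAG, a difference of 1.32 (SE 0.12, edgeR adjusted p = 6.27e-12). Troponin T (up) and the actin gene Act87E differed by 1.22 (SE 0.22, edgeR adjusted p = 0.0013) and 1.19 (SE 0.13, edgeR adjusted p = 2.07e-09). The myosin heavy chain gene Mhc, the most abundant of the list, was higher by less, 0.64 (SE 0.10, edgeR adjusted p = 4.14e-06), and the giant protein genes bt and sls by 0.46 and 0.14, the latter not called. Summed over the list, the level was 4752, 5000.3, 4861 and 5903 CPM in control, 8811, 8516, 8799 and 9190.0 CPM in Atx2-3xFLAG and 9161, 8551, 9587 and 10499 CPM in Nab2-FLAG libraries. The sums of both tagged genotypes lay above every control sum, and against Nab2-FLAG 0 members were higher and 1 lower. In RNA of whole heads, more cells of a type and more RNA per cell cannot be told apart, and this holds for each cell-type list here. The summed muscle and cuticle levels were thus higher in the tagged libraries, and their part in the results for the other lists was not tested. The count of 16 higher members was the same without control replicate 4, and was 17 with library size alone.

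**Figure D3:**
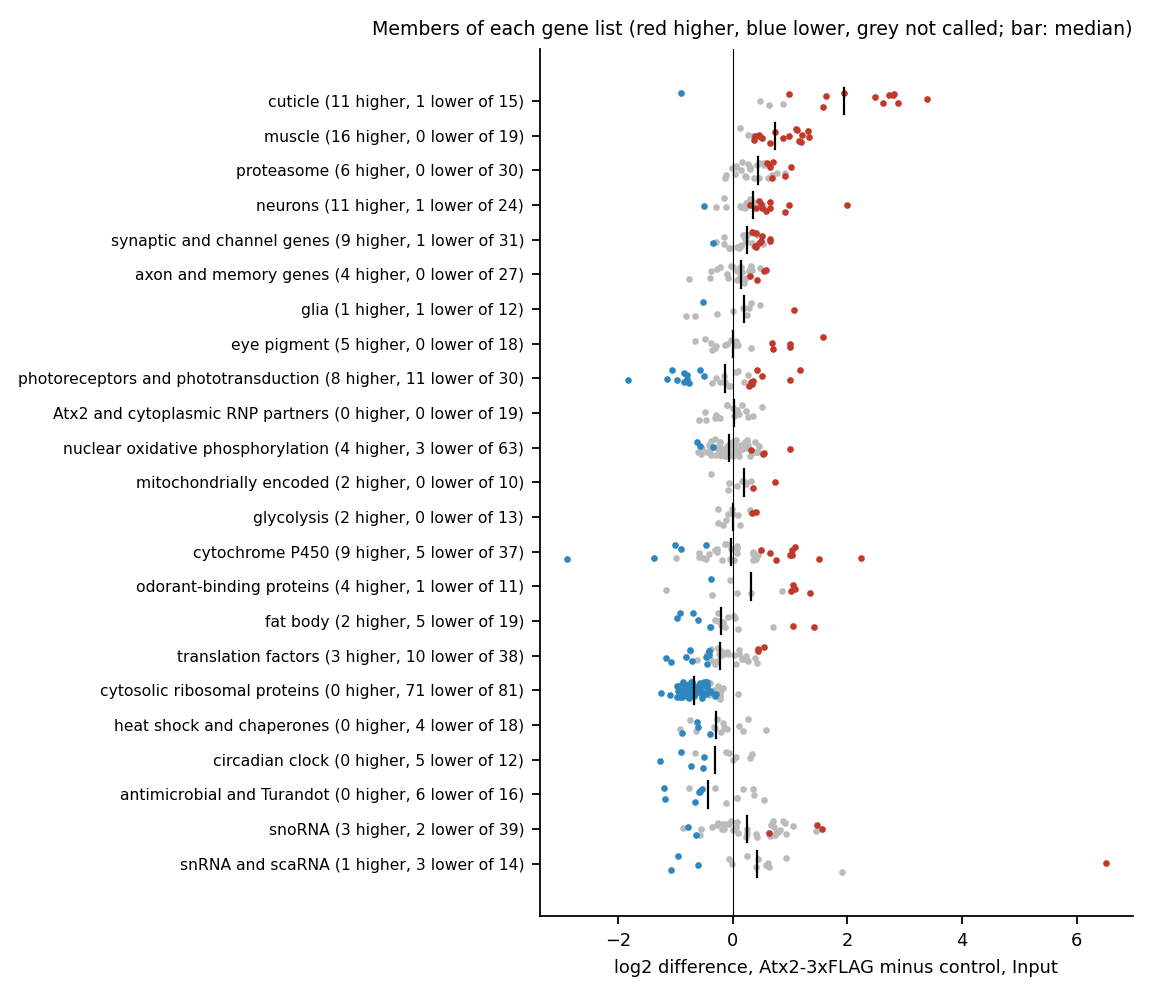
Each point is 1 tested member of a gene list at its log2 difference, Atx2-3xFLAG minus control in Input (x axis), with members called higher in red, called lower in blue and others in grey, and a black bar at the list's median. The ribosomal protein points lie mostly in a compact cloud below 0, with RpL38 just above it, all muscle points lie above 0, as do 14 of 15 cuticle points, and the medians of photoreceptors, fat body and translation factors, below 0 here, were above 0 with library size alone.

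In the eye, most rhodopsin genes and both arrestin genes fell, and some other photoreceptor genes rose. Light activates rhodopsin in the photoreceptor, a G protein and the phospholipase C of norpA follow, the TRP channels open, and arrestin shuts rhodopsin off. Of 30 tested photoreceptor genes 11 fell and 8 rose, against 8.83% and 9.86% of all genes, and the median was -0.14, which turned to 0.11 with library size alone (9 lower, 11 higher). The summed level was 100287, 94519.6, 106821 and 79173 CPM in control and 67008, 66201, 61093 and 56504 CPM in Atx2-3xFLAG. Most of it was ninaE, the rhodopsin Rh1 of the outer photoreceptors (chr3R:19886255-19888206), with 58406, 53882, 61626 and 41499.5 CPM in control and 35292, 32849, 28589 and 27795 CPM with the transgene. No library overlapped, and ninaE differed by -0.79 (SE 0.13, edgeR adjusted p = 5.26e-06).

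The 6 opsin genes of the list were followed, a choice made after their values had been seen. Rh5, the opsin of a subset of the inner R8 photoreceptors (chr2L:12008153-12009832), moved furthest, from 232, 193, 213 and 129 CPM in control to 63.9, 49.3, 56.0 and 45.7 CPM in Atx2-3xFLAG. The 2 sets were well apart, and the log2 difference was -1.82 (SE 0.17, edgeR adjusted p = 2.71e-10). Rh6, which marks the other R8 cells, was at 485, 414, 455 and 365 CPM in control and at 489, 507, 482 and 496 CPM in Atx2-3xFLAG. Here the groups overlapped, and the difference was 0.20 (SE 0.10, edgeR adjusted p = 0.196). The ultraviolet opsins of the R7 cells fell, Rh3 by 0.96 (SE 0.15, edgeR adjusted p = 0.000101) and Rh4 by 1.05 (SE 0.11, edgeR adjusted p = 2.71e-10) on the log2 scale. Rh2, the opsin of the ocelli, overlapped between groups and differed by -0.50 (SE 0.14, edgeR adjusted p = 0.00737). Rh4 encloses sina and other genes in its annotated span, and Arr2 overlaps Pex7, so that with the strand setting of the counting not known some of their reads may belong to those genes.

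Arr2, the major arrestin (chr3L:8647261-8648936), was at 15015, 14099, 16798 and 10917 CPM in control and at 6752, 6860.0, 6425 and 5529.8 CPM in Atx2-3xFLAG. Every tagged library lay below every control library, with a log2 difference of -1.15 (SE 0.12, edgeR adjusted p = 2.99e-10). Arr1 fell by 0.84 (SE 0.14, edgeR adjusted p = 7.1e-05). Of the pair of light-gated channels, trpl was at 3073, 2932, 3379.8 and 3179 CPM in control and at 1796, 1856, 1838 and 1467 CPM with the transgene, fully separated at -0.85 (SE 0.10, edgeR adjusted p = 1.37e-08), while trp was at 3580.5, 3468, 3969 and 3749 CPM in control and 3410.3, 3832, 3444 and 2772 CPM with Atx2-3xFLAG, with overlap and at -0.13 (SE 0.10, edgeR adjusted p = 0.422). The phospholipase gene norpA did not pass the test at 0.09 (SE 0.10, edgeR adjusted p = 0.586). Other photoreceptor genes rose, with every Atx2-3xFLAG library above every control library, among them rdgA, a diacylglycerol kinase, at 1.00 (SE 0.11, edgeR adjusted p = 1.43e-09), and eys, whose product forms the extracellular matrix between rhabdomeres, at 1.17 (SE 0.13, edgeR adjusted p = 5.67e-08). The eye pigment list held 5 higher and 0 lower genes of 18 (9.86% and 8.83% of all genes), and the higher ones were Pu, pr and se, which serve the synthesis of pteridine pigments, with red and ry. The gene w, also in the list, was not called at -0.66 but was called lower in 4 of 18 alternatives. The list held 1 lower gene with no filter on low counts or with only the 8 libraries, and 2 with the replicate block. It also held 1 with a filter of at least 20 CPM in 4 libraries. Pu, a GTP cyclohydrolase that also feeds dopamine synthesis, was at 158, 157, 189.7 and 235 CPM in control and at 488, 553, 585 and 583 CPM in Atx2-3xFLAG, without overlap and at 1.58 (SE 0.13, edgeR adjusted p = 1.1e-12). Without control replicate 4, 11 photoreceptor genes were lower and 7 higher. The count of higher photoreceptor genes rests on single libraries, being 4, 3 and 5 without control replicates 1, 2 and 3, and 5 and 4 without Atx2-3xFLAG replicates 2 and 3.

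Several core clock genes were lower. In the fly clock, CLOCK and CYCLE switch on per, tim, vri and Pdp1, and the products of per and tim feed back on them. Of 12 tested clock genes 5 fell and 0 rose (8.83% and 9.86% of all genes), at a median of -0.31. The repressor vri (chr2L:5288944-5311223) was at 131, 162, 133 and 76.5 CPM in control and at 46.9, 38.1, 53.3 and 67.5 CPM in Atx2-3xFLAG. Control replicate 4 was the lowest control and still above every tagged library, and the log2 difference was -1.28 (SE 0.23, edgeR adjusted p = 0.000692). The gene per (chrX:2685580-2692780) had 51.1, 52.7, 55.4 and 20.6 CPM in control and 29.0, 9.54, 19.6 and 34.3 CPM in Atx2-3xFLAG. Its groups overlapped through control replicate 4, and the difference was -0.90 (SE 0.27, edgeR adjusted p = 0.0151). Its call was lost without control replicate 1, 2 or 3, without Atx2-3xFLAG replicate 3 and with library size alone. The gene tim had 186, 179.9, 212 and 112 CPM in control and 112, 106, 97.8 and 97.2 CPM with Atx2-3xFLAG, also with overlap in that library, at -0.73 (SE 0.20, edgeR adjusted p = 0.0119). The blue-light receptor gene cry differed by -0.51 (SE 0.15, edgeR adjusted p = 0.0121) and the repressor cwo by -0.49 (SE 0.16, edgeR adjusted p = 0.0238). Clk, at 0.01 (SE 0.19, edgeR adjusted p = 0.988), cyc, at -0.66 (SE 0.29, edgeR adjusted p = 0.114), and Pdp1, at 0.31 (SE 0.11, edgeR adjusted p = 0.0531), did not pass the test. Without control replicate 4, and with the replicate block, the list had 6 lower genes and 1 higher. It had 5 lower and 1 higher with DESeq2 size factors and with a filter of at least 20 CPM in 4 libraries. The count of lower genes was 1, 3 and 3 without control replicates 1, 2 and 3, 2 and 3 without Atx2-3xFLAG replicates 3 and 4, and 2 with library size alone. The call for vri held in each of these. The hour of collection is not given in the sources used here, and its part in the clock gene differences was not tested.

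Next to per on the X chromosome lies CG2650, listed also as dyw, whose annotated span (chrX:2692732-2693886) overlaps the end of per. It was at 0, 4.06, 3.36 and 19.1 CPM in control and at 99.7, 139.9, 124 and 72.0 CPM in Atx2-3xFLAG. It was higher by 4.04 (SE 0.49, edgeR adjusted p = 8.91e-05), and by 5.44 without control replicate 4, its highest control. It was intermediate in Nab2-FLAG at 26.2, 31.6, 32.2 and 47.3 CPM.

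**Figure D4:**
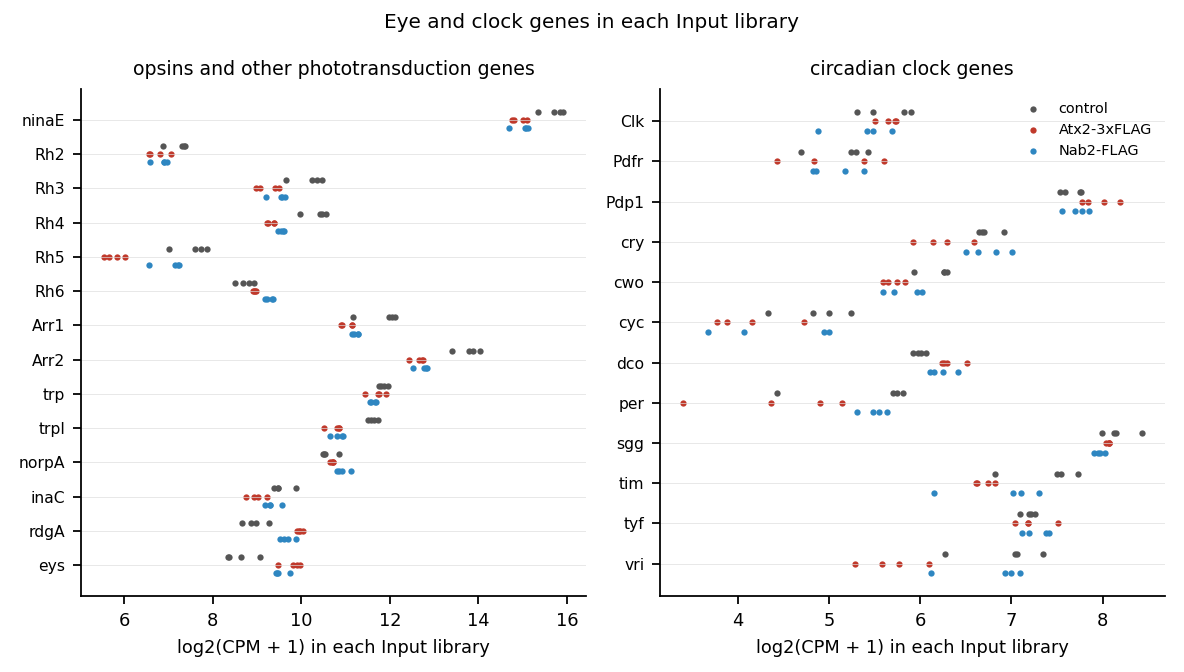
Points are log2(CPM + 1) of 1 gene in 1 Input library (x axis), in grey for control, red for Atx2-3xFLAG and blue for Nab2-FLAG, with 4 libraries per genotype. Arr2, trpl, Rh4 and Rh5 lie lower in Atx2-3xFLAG than in every control library and eys and rdgA lie higher, Rh6 and trp overlap, and 1 control point, replicate 4, falls among the tagged libraries for per and tim.

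Of the 24 tested neuronal genes 11 rose and 1 fell (9.86% and 8.83% of all genes), with a median of 0.35. The driver gene elav had 122, 89.3, 94.0 and 119 CPM in control and 135, 109.7, 124 and 121 CPM in Atx2-3xFLAG. The groups overlapped, at 0.21 (SE 0.14, edgeR adjusted p = 0.308). The elav relative fne, also an RNA-binding protein of neurons (chrX:12917477-12950417), was at 58.6, 86.6, 65.5 and 86.7 CPM in control and at 192, 121, 105 and 141 CPM in Atx2-3xFLAG, without overlap, and differed by 0.92 (SE 0.16, edgeR adjusted p = 4.01e-05). In Nab2-FLAG heads fne was at 78.6, 80.3, 68.2 and 68.4 CPM, and the direct comparison gave 0.91 (edgeR adjusted p = 0.000135). Gad1, which makes the transmitter GABA, was at 36.1, 55.5, 30.2 and 51.5 CPM in control and 84.3, 87.4, 72.9 and 103 CPM with Atx2-3xFLAG, separated at 0.98 (SE 0.18, edgeR adjusted p = 3.22e-05). The vesicular glutamate transporter gene VGlut was the lower one, at -0.50 (SE 0.15, edgeR adjusted p = 0.0142), with overlapping groups. The enzyme of dopamine synthesis, ple, moved furthest, with 44.9, 78.4, 57.1 and 95.6 CPM in control and 286, 256, 280.0 and 274 CPM in Atx2-3xFLAG. It rose by 2.0 (SE 0.17, edgeR adjusted p = 2.31e-09). The enzyme also serves cuticle tanning, and which tissue the difference in ple came from was not tested. Ddc and Vmat, 2 other dopamine genes of the list, differed by -0.12 and 0.26 and were not called. The list of synaptic and channel genes shares members with the neuronal list, among them Syx1A and Sh, so their counts are not separate results. Among its 31 tested genes 9 rose and 1 fell (9.86% and 8.83% of all genes). The higher ones were led by Syx1A at 0.64 (SE 0.16, edgeR adjusted p = 0.00334) and the potassium channel gene Sh at 0.64 (SE 0.14, edgeR adjusted p = 0.00066), and the lower one was dlg1. With library size alone 16 were higher and 0 lower.

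Of 27 axon guidance and memory genes 4 rose and 0 fell (9.86% and 8.83% of all genes), at a median of 0.14. The higher ones were Sema1a, stan, Pka-C1 and futsch, the last also in the neuronal list, with differences from 0.30 to 0.58. Leaving out 1 library brought this count as low as 1 (control replicate 1 or 3, or Atx2-3xFLAG replicate 1), and it was 11 with library size alone. Neurons had 13 higher and 0 lower genes without control replicate 4, and 17 and 0 with library size alone. The lower count was 2 without control replicate 1 or Atx2-3xFLAG replicate 4 and 0 without Atx2-3xFLAG replicate 3. Of 12 glial genes 1 rose (e, at 1.07, an enzyme of dopamine conjugation) and 1 fell (Tret1-1, at -0.52), against 9.86% and 8.83% of all genes. The glial transcription factor repo was not called at -0.66. Without control replicate 4 the glial counts were 4 and 1, with library size alone 5 and 0, and without Atx2-3xFLAG replicate 3 2 and 1. Of 19 tested genes for Atx2 and its partners in cytoplasmic granules 0 passed the edgeR threshold (5 at an unadjusted p under 0.05, and 0 by DESeq2 or limma voom). With library size alone 7 were higher, and without control replicate 4 there were 1 higher and 3 lower. With the replicate block there were 1 higher and 2 lower, and with a filter of at least 20 CPM in 4 libraries 0 and 1. The most abundant, the poly(A)-binding protein gene pAbp, was at 2399, 2474, 2560.4 and 2213 CPM in control and at 2389.7, 2522, 2378 and 2503 CPM in Atx2-3xFLAG. The groups overlapped, at 0.02 (SE 0.10, edgeR adjusted p = 0.912).

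Fat body genes moved both ways. The fat body is the fly's organ of storage and secretion and surrounds the brain in the head. Of 19 tested genes 5 fell and 2 rose (8.83% and 9.86% of all genes), at a median of -0.20 that turned to 0.06 with library size alone. In place of 5, 3 were lower with library size alone and 3 without control replicate 1. The yolk protein gene Yp1 (chrX:10053811-10055498), the called gene with the highest mean CPM over the 8 libraries, had 62724, 56713, 76883 and 58257 CPM in control and 30776, 32178, 31299 and 35569.5 CPM in Atx2-3xFLAG. All tagged libraries were below all control libraries, at -0.97 (SE 0.12, edgeR adjusted p = 3.37e-08). Its neighbour Yp2 did not pass the test at -0.30 (SE 0.11, edgeR adjusted p = 0.0571), and Yp3 overlapped between groups and differed by -0.40 (SE 0.13, edgeR adjusted p = 0.0281), a call lost with library size alone and without control replicate 1 or 3 or Atx2-3xFLAG replicate 3 or 4. The iron carrier gene Tsf1 was at 902, 803, 879.8 and 522 CPM in control and at 408, 496, 388 and 364 CPM in Atx2-3xFLAG, separated at -0.91 (SE 0.14, edgeR adjusted p = 3.59e-05). In the opposite direction, the storage protein gene Lsp2 (chr3L:12129393-12131869) had 208, 196, 201 and 244 CPM in control and 550.4, 588, 545 and 584 CPM with Atx2-3xFLAG, a log2 difference of 1.41 (SE 0.11, edgeR adjusted p = 3.84e-13). The triglyceride lipase gene bmm had 43.6, 55.5, 43.7 and 63.2 CPM in control and 121, 82.7, 104 and 112 CPM in Atx2-3xFLAG, higher by 1.04 (SE 0.17, edgeR adjusted p = 4.3e-06), while its relative dob, named for that likeness, had 49.9, 46.0, 53.7 and 45.6 CPM in control and 17.9, 11.1, 14.2 and 22.9 CPM with Atx2-3xFLAG, lower at -1.53 (SE 0.23, edgeR adjusted p = 1.73e-06). The fatty acid synthase genes FASN1 and FASN2, which lie side by side on 2L (chr2L:3056598-3068177 and chr2L:3043947-3056143), also parted. FASN1 was at 3462 ± 329 CPM in control and at 2148 ± 269 CPM in Atx2-3xFLAG, a log2 difference of -0.69 (SE 0.10, edgeR adjusted p = 1.57e-06). FASN2 rose from 3.74, 5.41, 6.72 and 11.8 CPM to 54.5, 63.6, 71.1 and 78.9 CPM, a log2 difference of 3.28 (SE 0.29, edgeR adjusted p = 4.62e-12), and its span encloses the genes snRNA:LU and snRNA:U5:23D.

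Genes of blood cells and of the humoral immune response were lower where they differed. In a hemocyte list drawn up after its values had been seen, 4 of 9 fell and 0 rose (8.83% and 9.86% of all genes). The prophenoloxidases of crystal cells, which start melanization, were among the 15 largest differences on the lower side. PPO1 had 56.1, 33.8, 50.4 and 66.2 CPM in control and 13.6, 15.9, 7.11 and 21.7 CPM in Atx2-3xFLAG, a log2 difference of -1.86 (SE 0.25, edgeR adjusted p = 1.78e-07). PPO2 had 161, 168, 233 and 219 CPM in control and 36.6, 41.3, 38.2 and 103 CPM with Atx2-3xFLAG, a log2 difference of -1.84 (SE 0.32, edgeR adjusted p = 0.00199), and the highest tagged library, replicate 4, was still below every control. The clotting protein gene Hml differed by -1.06 (SE 0.11, edgeR adjusted p = 7.24e-10), while the transcription factor srp and the receptor gene crq were not called. The list summed to 996, 928, 1083 and 1098 CPM in control and 500.1, 539, 532 and 747 CPM in Atx2-3xFLAG, and to 803 to 918 CPM in Nab2-FLAG. Of 16 tested antimicrobial and Turandot genes 6 fell and 0 rose, against the same background, at a median of -0.42 that was 0.01 without control replicate 2. IM4, an immune-induced peptide gene, was at 132, 145, 176 and 131 CPM in control and at 57.1, 60.4, 63.1 and 76.6 CPM in Atx2-3xFLAG, apart in all libraries at -1.18 (SE 0.14, edgeR adjusted p = 1.23e-08). The attacin gene AttA overlapped between groups at -1.20 (SE 0.40, edgeR adjusted p = 0.0398), and its call was lost in 7 of the alternatives. In place of 6, 3 were lower without control replicate 1 or 3, without Atx2-3xFLAG replicate 1, 2 or 3 and with DESeq2, and 1 with library size alone. Of 21 immune recognition and signalling genes Tep4 was the one called (18.7% of all genes were), with a log2 difference of -0.48 (SE 0.12, edgeR adjusted p = 0.00205). It was not called with library size alone, and 3 were lower without control replicate 4.

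Detoxification genes showed no common direction. Of 37 cytochrome P450 genes 9 were higher and 5 lower (9.86% and 8.83% of all genes), and with library size alone 11 and 2. The lower count was 3 without control replicate 1 or Atx2-3xFLAG replicate 4, and without control replicate 1 6 were higher. Cyp309a1 had 7.48, 10.8, 8.39 and 4.41 CPM in control and 40.9, 44.5, 41.8 and 22.9 CPM in Atx2-3xFLAG, separated at 2.24 (SE 0.33, edgeR adjusted p = 6.32e-07), and Cyp6a23 differed by 1.50 (SE 0.32, edgeR adjusted p = 0.00048). On the lower side Cyp6t1 had 15.0, 14.9, 23.5 and 25.0 CPM in control and 6.82, 6.36, 5.33 and 11.4 CPM with Atx2-3xFLAG, a log2 difference of -1.37 (SE 0.36, edgeR adjusted p = 0.00429), behind Cyp6a2 at -2.89 (SE 0.19, edgeR adjusted p = 5.88e-16). Both glutathione S-transferase genes called of 15 were lower (8.83% of all genes were), GstE1 with 41.1, 44.6, 45.3 and 47.0 CPM in control and 20.4, 14.3, 23.1 and 11.4 CPM in Atx2-3xFLAG at -1.30 (SE 0.22, edgeR adjusted p = 1.45e-05), and GstE12 at -0.34, a call lost in 7 alternatives. GstE1 was lower than in Nab2-FLAG too, at -1.45 (edgeR adjusted p = 3.91e-06). None of 3 tested UDP-glycosyltransferase genes passed the edgeR threshold (0 at an unadjusted p under 0.05, and 0 by DESeq2 or limma voom).

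Odorant-binding, sterol-binding and neuropeptide genes each held calls in both directions or in few members. Of 11 odorant-binding protein genes 4 rose and 1 fell (9.86% and 8.83% of all genes). The higher ones were led by Obp56e, which had 52.3, 52.7, 58.8 and 42.6 CPM in control and 132, 108, 139 and 141 CPM in Atx2-3xFLAG, a log2 difference of 1.34 (SE 0.16, edgeR adjusted p = 1.37e-08), and its neighbour Obp56d at 1.09 (SE 0.14, edgeR adjusted p = 7.08e-08). Obp99c, which had a higher CPM than either, fell at -0.38 (SE 0.11, edgeR adjusted p = 0.0121), a call lost with library size alone and without control replicate 3, and the call for Obp56g was lost in 9 alternatives. Sterol-binding genes of the Npc2 family, which the name pattern for gut enzymes had caught, were lower, with Npc2g at 196, 169, 188 and 150.0 CPM in control and 63.9, 65.2, 64.9 and 29.7 CPM in Atx2-3xFLAG, a log2 difference of -1.64 (SE 0.16, edgeR adjusted p = 1.02e-10), and its neighbour Npc2h at -0.99 (SE 0.25, edgeR adjusted p = 0.00416). Of 7 neuropeptide genes Nplp3 and Ilp3 were higher, Nplp3 with 227, 241, 289 and 446 CPM in control and 774, 723, 809.7 and 859.9 CPM with Atx2-3xFLAG at 1.40 (SE 0.15, edgeR adjusted p = 6.83e-08), and Nplp2 and Ms were lower. The calls for Ilp3 and Ms were lost in 7 and 6 alternatives, and the 2 higher and 2 lower calls stand against 9.86% and 8.83% of all genes.

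Few genes of energy metabolism passed the test, and those of protein turnover that did were higher for the proteasome and lower for chaperones. Of 63 nuclear genes of oxidative phosphorylation 4 rose and 3 fell (9.86% and 8.83% of all genes), at a median of -0.06 that was 0.20 with library size alone (16 higher and 0 lower). The higher count was 2 without control replicate 1, and the lower count 1 without control replicate 3. The cytochrome c gene Cyt-c-p had 156, 153, 173 and 259 CPM in control and 325, 367, 381 and 402 CPM in Atx2-3xFLAG, a log2 difference of 1.00 (SE 0.19, edgeR adjusted p = 0.00145). Of 10 tested mitochondrial genes mt:CoIII, a subunit of cytochrome oxidase, had 5945, 6264, 6335 and 5925 CPM in control and 8967, 9575, 9289 and 12892 CPM with Atx2-3xFLAG, all tagged libraries above control at 0.73 (SE 0.11, edgeR adjusted p = 2.27e-06). The call for mt:CoII was lost in 6 alternatives, and with library size alone 6 mitochondrial genes were higher in place of 2 (9.86% of all genes). Of 13 glycolytic genes 2 rose and 0 fell, against the same background of all genes. The higher count was 1 without control replicate 1 or 2 or Atx2-3xFLAG replicate 2 or 3 and with DESeq2, 3 without control replicate 4 and 5 with library size alone. Of 30 genes caught by the proteasome name pattern 6 rose and 0 fell (9.86% and 8.83% of all genes), at a median of 0.44, and the subunit gene Rpn10 had 13.7, 14.9, 6.72 and 19.1 CPM in control and 26.4, 28.6, 27.6 and 29.7 CPM in Atx2-3xFLAG, a log2 difference of 1.01 (SE 0.28, edgeR adjusted p = 0.00621). That count was 14 with library size alone, 2 with DESeq2, and 3 without control replicate 3 or Atx2-3xFLAG replicate 3. Of 18 chaperone genes 4 fell and 0 rose (8.83% and 9.86% of all genes). Hsc70-4, the constitutive cytosolic Hsp70, had 4179, 3710.0, 4783 and 3108 CPM in control and 2092, 2294, 2152 and 2024 CPM with Atx2-3xFLAG, without overlap at -0.88 (SE 0.11, edgeR adjusted p = 4.28e-08). The small heat shock gene Hsp26 differed by -0.62 (SE 0.13, edgeR adjusted p = 0.000456). The chaperone count was 2 without control replicate 1 or Atx2-3xFLAG replicate 3 and 1 with library size alone. The variant histone genes His3.3B and His4r, which lie outside the replication-dependent clusters, fell at -0.58 (SE 0.12, edgeR adjusted p = 0.000245) and -0.60 (SE 0.18, edgeR adjusted p = 0.0132), the second a call lost in 3 alternatives, out of 6 tested histone genes (8.83% of all genes were lower). Of 17 genes of the vacuolar proton pump 3 rose and 0 fell (9.86% and 8.83% of all genes). Of these Vha14-1 differed by 1.20 (SE 0.33, edgeR adjusted p = 0.00672) with overlapping groups. The higher count was 1 without control replicate 1 or Atx2-3xFLAG replicate 2 and 6 with library size alone.

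Several abundant non-coding RNAs were lower. The RNA of the RNase MRP enzyme, which processes ribosomal RNA precursors (chr3R:23730048-23730429), was at 17287, 18162, 22483 and 16939.5 CPM in control and at 7796, 9095, 10864 and 11963 CPM in Atx2-3xFLAG. The groups did not overlap, at -0.91 (SE 0.12, edgeR adjusted p = 9.07e-08). RNaseP:RNA, the related RNA that matures transfer RNAs and a gene chosen after its value was seen, differed by -1.46 (SE 0.12, edgeR adjusted p = 1.29e-12). It lies within the span of ATPsynC, which rose, at 0.54 (SE 0.10, edgeR adjusted p = 3.57e-05). The 7SK RNA, a regulator of transcription elongation, had 1994, 2014, 2382 and 1486 CPM in control and 1139.9, 798, 866 and 938 CPM with Atx2-3xFLAG, lower at -1.07 (SE 0.17, edgeR adjusted p = 0.000225), and the U11 RNA of the minor spliceosome differed by -0.60 (SE 0.15, edgeR adjusted p = 0.0044), a call lost with library size alone. The U2 gene snRNA:U2:34ABa had 3 counts in all control libraries together and 419 in Atx2-3xFLAG, and was at least 25.6-fold higher. In the Nab2-FLAG libraries together it had 245 counts. Other U2 copies were at 13 counts or fewer in each genotype, so that which copy the reads came from is uncertain. The U5 genes varied within groups. The gene snRNA:U5:63BC had 449, 656, 497 and 1963 CPM in control and 748, 789.9, 2063 and 1934 CPM in Atx2-3xFLAG. Control replicate 4 and Atx2-3xFLAG replicates 3 and 4 were high, the groups overlapped, and the difference was 0.64 (SE 0.64, edgeR adjusted p = 0.569). Nab2-FLAG replicate 4 was high as well, at 1869 CPM against 497 to 652 CPM in its other libraries. Of 39 tested small nucleolar RNAs 3 rose and 2 fell (9.86% and 8.83% of all genes), and without control replicate 4 there were 11 higher and 2 lower. Their summed level was highest in replicate 4 of each genotype, and that fit left out replicate 4 of control alone. With the replicate block 9 were higher and 2 lower. The pseudouridylation guide snoRNA:Psi18S-1820 had 573, 494, 564 and 526 CPM in control and 384, 285, 259 and 333 CPM with Atx2-3xFLAG, lower at -0.77 (SE 0.12, edgeR adjusted p = 3.75e-06), and snoRNA:Psi18S-1377b was higher at 1.47 (SE 0.37, edgeR adjusted p = 0.00297). These RNAs lie within the host genes Nop60B and RpS7, RNaseMRP:RNA within the span of CG10365 and U11 within that of Fie, and how reads were assigned between such pairs is not given in the sources used here.

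Of the 15 largest separated differences on the higher side, Cda4, Cpr100A, Pxd, serp and Acp1 were cuticle, chitin or tanning genes. The others included Dhc98D, a dynein heavy chain gene (chr3R:28486953-28519398), at 3.74, 5.41, 1.68 and 1.47 CPM in control and 24.7, 50.9, 35.6 and 34.3 CPM in Atx2-3xFLAG. Nab2-FLAG heads had 3.88, 4.51, 7.44 and 5.26 CPM, near control, and Dhc98D was higher than control by 3.41 (SE 0.39, edgeR adjusted p = 3.99e-09) and higher than Nab2-FLAG by 2.74 (edgeR adjusted p = 9.15e-08). Sclp had 6.23, 4.06, 1.68 and 2.94 CPM in control and 28.1, 42.9, 38.2 and 56.0 CPM with Atx2-3xFLAG, a log2 difference of 3.33 (SE 0.37, edgeR adjusted p = 1.63e-09). The uncharacterized genes CG11458, CG13722, CG7896, CG8483 and CG16786 were higher by 3.19 to 3.33, all at 26.5 CPM or less in every control library. Without control replicate 4 the differences were 5.36 for CG8483, 4.22 for CG13722 and 4.07 for CG11458, and without control replicate 1 that of CG7896 was 5.06.

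On the lower side, phu was at 394, 342, 403 and 269 CPM in control and at 17.0, 27.0, 28.4 and 76.6 CPM in Atx2-3xFLAG, far apart at -3.27 (SE 0.39, edgeR adjusted p = 0.000214), and at -3.88 without Atx2-3xFLAG replicate 4. CG18135 (chr3L:18990026-18998283) was the most abundant of these, with 1356, 1175, 1363 and 841 CPM in control and 350.1, 359, 358 and 454 CPM in Atx2-3xFLAG, at -1.64 (SE 0.12, edgeR adjusted p = 9.5e-14). CG8745 had 408, 356, 442 and 207 CPM in control and 75.8, 52.5, 76.4 and 105 CPM with Atx2-3xFLAG, a log2 difference of -2.17 (SE 0.25, edgeR adjusted p = 5.7e-05). In both of them control replicate 4 was the lowest control library and remained above every tagged library. CG4757 had 64.8, 60.9, 52.0 and 32.3 CPM in control, 15.3, 20.7, 11.6 and 6.86 CPM in Atx2-3xFLAG and 81.6, 82.1, 105 and 96.4 CPM in Nab2-FLAG libraries. It was thus lower than in both other genotypes, at -2.0 (SE 0.25, edgeR adjusted p = 2.66e-08) against control and -2.76 (edgeR adjusted p = 2.36e-12) against Nab2-FLAG. CG32523, CG17224, CG9498, CG1628 and CG7607 differed by -2.41 to -1.52. Of the 129 genes named here by rule that were called, 89 kept the call under every alternative that gave a value.

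**Figure D5:**
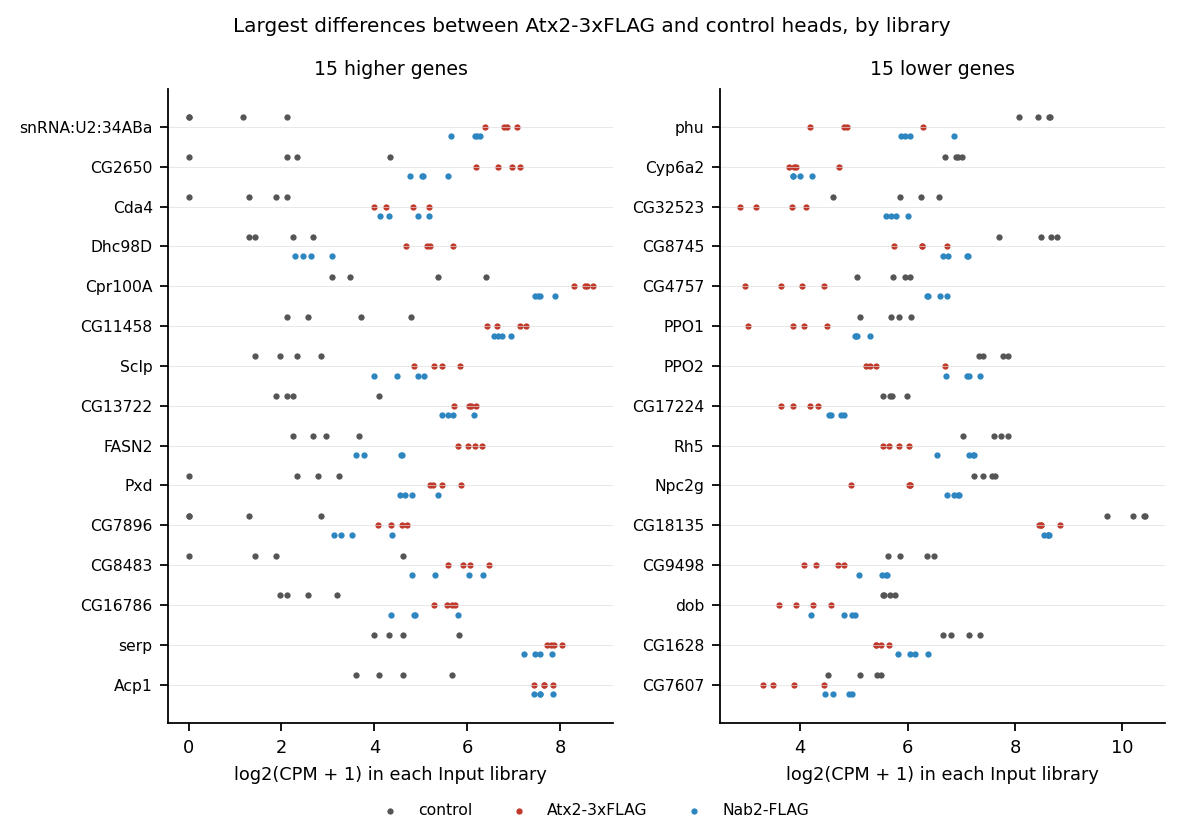
Points are log2(CPM + 1) in single Input libraries (x axis) for the 15 higher and 15 lower genes with the largest log2 differences among called genes whose groups do not overlap and whose higher group has a mean of at least 20 CPM, in grey for control, red for Atx2-3xFLAG and blue for Nab2-FLAG. For Dhc98D the Nab2-FLAG points lie among or just above the control points, and for CG4757 they lie above them.

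Fewer genes were called between the 2 tagged genotypes than between Atx2-3xFLAG and control. Tested directly against Nab2-FLAG Input, 262 genes were called in Atx2-3xFLAG (4.98% of those tested), 102 higher (1.94%) and 160 lower (3.04%). Of the 982 genes called against control, 139 were also called against Nab2-FLAG in that direction, 10 in the other direction and 833 not, and a further 113 were called against Nab2-FLAG alone. Both comparisons use the same Atx2-3xFLAG libraries. Of the 15 largest higher genes 4 were also higher than Nab2-FLAG, and of the 15 largest lower genes 9 were also lower. The Atx2-3xFLAG and Nab2-FLAG comparisons with control share their control libraries, so their values are given side by side. The median of the muscle list was 0.74 for Atx2-3xFLAG and 0.95 for Nab2-FLAG against control. For cuticle the medians were 1.94 and 2.04, and for ribosomal proteins -0.68 and -0.46. For antimicrobial genes they were -0.42 and 0.80, the first turning to 0.01 without control replicate 2 and to 0.06 with no filter on low counts.

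Where Atx2-3xFLAG and Nab2-FLAG heads differed, some groups stood out in number against the background of 1.94% higher and 3.04% lower. Of 16 antimicrobial genes 7 were lower in Atx2-3xFLAG, with AttA at 5.96, 6.36, 9.78 and 17.2 CPM against 68.9, 106, 76.9 and 99.9 CPM in Nab2-FLAG, a log2 difference of -3.15 (edgeR adjusted p = 1.81e-07). Of 19 fat body genes 7 were lower and 1 higher. Yp2, at 11317, 12935, 11886 and 12824 CPM in Atx2-3xFLAG and 20426, 19628, 20417 and 18895 CPM in Nab2-FLAG, differed by -0.70 (edgeR adjusted p = 3.8e-05), and bmm was the higher one at 1.06 (edgeR adjusted p = 8.92e-06). Of 13 glycolytic genes 6 were lower and 0 higher. Against control the median of that list was 0.01 for Atx2-3xFLAG and 0.33 for Nab2-FLAG. Of 9 hemocyte genes 5 were lower, and of 12 clock genes 3, with vri at -1.15 (edgeR adjusted p = 0.00543) and per at -0.89 (edgeR adjusted p = 0.0363). In the eye 5 photoreceptor genes were lower and 1 higher, and Rh5 had 141, 151, 149 and 92.9 CPM in Nab2-FLAG, a difference of -1.31 (edgeR adjusted p = 1.53e-06). Of 15 cuticle genes 4 were higher and 1 lower. The summed cuticle level was 1084 to 1243 CPM in Atx2-3xFLAG and 740 to 942 CPM in Nab2-FLAG libraries. Muscle, by contrast, had 0 higher and 1 lower gene of 19.

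The immunoprecipitated (RIP) part of the 8 lysates gave a second set of libraries from the same material. The RIP and Input libraries share their lysates and are not independent animals, so the values stand side by side with no test between sets of calls. Here RpS20 differed by -1.07 in RIP and -1.25 in Input, Mlc2 by 1.31 and 1.32, Cpr100A by 3.00 and 3.38, Arr2 by -1.12 and -1.15, and Rh5 by -2.14 and -1.82. AttA was at -0.35 in RIP and -1.20 in Input, and snoRNA:Psi18S-1820 at -0.42 and -0.77. Some lists, chosen after their values were seen, also differed in count. Of 39 small nucleolar RNAs 18 were higher in RIP and 3 in Input, and of 16 antimicrobial genes 1 and 6 were lower. Lower ribosomal protein genes numbered 69 and 71, and higher muscle genes 13 and 16. Over all 5256 genes 686 were higher and 709 lower in RIP. In a test of whether the RIP difference departed from the Input difference within lysates, 0 of 135 named genes passed the edgeR threshold over all genes tested (7 at an unadjusted p under 0.05).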

How the data were processed

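RNA-seq counts per gene were analysed for 12 Input libraries of fly heads, 4 for each of 3 genotypes, and for the 12 RIP libraries of the same lysates. The deposited values are whole-number counts per gene symbol. The authors aligned reads with STAR 2.6.0b-1 to build BDGP6, counted them with featureCounts 1.6.3 and used DESeq2 2.11.40.2, per the submitters' processing notes. The strand setting, the library kit's handling of strand and the treatment of reads that map to several copies are not given in the sources used here, so genes that overlap or have near-identical copies are uncertain.

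From these counts, edgeR 4.0.16 in R 4.3.3 was used with TMM scaling, a filter on low counts (filterByExpr over the 3 Input groups, minimum count 10) and a robust quasi-likelihood F test with genotype as the one term. The fit took all 12 Input libraries, which share 1 estimate of the spread. Of 17753 symbols, 17670 matched a FlyBase gene and 10860 had a count in the 8 libraries compared. The 5256 tested genes held 98.0% to 98.7% of the counts, and the biological coefficient of variation was 0.122. Counting error alone sets a floor of 3 counts, and a gene at or under it in every library of a group is given as a bound. Chi-square per degree of freedom between libraries of a group ran from 1.95 to 8.20, so no pair agreed within sampling noise. P-values measure the spread between the libraries. The method was tested on simulated data. Simulated log2 changes of -2, -1 and -0.5 were called in 97.1%, 67.6% and 18.2% of genes. Those of 2, 1 and 0.5 were called in 100%, 87.9% and 33.3%, and 7 of 5056 unchanged genes were called. Small differences can thus be missed, and a gene that was not called may still differ. Positions are those of the RefSeq gene table for the Release 6 assembly.

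The members and gene lists were chosen with earlier results of these data known. Genes are named by rule: Atx2, elav, w and Nab2; the 15 higher and 15 lower called genes with the largest differences, no overlap and a mean of at least 20 CPM in the higher group; up to 4 called members of each list; and the 10 called genes with the highest mean CPM. Other genes in the text, among them the smallest ribosomal protein differences, the further opsin, arrestin, channel, chitin, muscle, clock and neuronal genes, FASN1, Hml, Yp2, Obp99c, RNaseP:RNA and the U5 genes, were chosen after their values were seen. So were the lists for chitin, tanning and hemocytes. Alternatives were another scaling, another filter, DESeq2 1.42.0, limma 3.58.1 voom, only the 8 libraries, the replicate number as a block, and each library left out in turn.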

Additional observations from a re-analysis of the deposited data

Results flagged for a closer look

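In groups of 4 libraries, a value was listed here when Dixon's ratio for its gap to the others exceeded the critical value for groups of that size. Of 342 groups examined 17 had such a value, where 1 in 20 would give 17.1, and 6 of the 17 were control replicate 4.

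In control replicate 4, CG13722 was at 16.2 CPM against 2.71 to 3.74 in the other 3 control libraries, CG8483 at 23.5 CPM against 0 to 2.71, and per at 20.6 CPM against 51.1 to 55.4. Summed lists stood apart in the same library, glia at 1686 CPM against 1347 to 1397, small nucleolar RNAs at 4439 CPM against 2522 to 2564, and neuropeptides at 966 CPM against 776 to 794.

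Among the Atx2-3xFLAG libraries, replicate 4 had the most such values. PPO2 was at 103 CPM there against 36.6 to 41.3, CG18135 at 454 CPM against 350.1 to 359, and mt:CoIII at 12892 CPM against 8967 to 9575. Npc2g was at 29.7 CPM against 63.9 to 65.2 and Cyp309a1 at 22.9 CPM against 40.9 to 44.5. The summed antimicrobial list was at 667 CPM against 386 to 409.8, and the summed nuclear oxidative phosphorylation list at 8656 CPM against 9324 to 9451. In replicate 2, Cyp6a2 was at 25.4 CPM against 12.8 to 14.2 and Ms at 1.59 CPM against 9.78 to 11.4. In replicate 1, RpLP2 was at 930.3 CPM against 1150.1 to 1187 and summed glia at 1581 CPM against 1689.7 to 1705.

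In the test of whether RIP and Input differences departed from each other, 0 of 135 named genes passed the edgeR threshold, and 7 had an unadjusted p under 0.05.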

How the results depend on the processing

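With library size only, 1016 genes were higher and 163 lower, against 518 and 464, and 681 of the 982 calls were shared; the cause was not tested. Nab2, which was not called, turned from below 0 to 0.15 with library size only. With 1 library left out it ran from -0.28 to 0.01 (0.00836, without Atx2-3xFLAG replicate 2), and pAbp from -0.01 (-0.0133, without control replicate 4) to 0.05 (0.0514). Leaving out 1 library of the 8 at a time gave 400 to 578 higher genes, 334 to 528 lower genes, 187 to 362 genes called against Nab2-FLAG and 1170 to 1457 genes without overlap. DESeq2 called 406 higher and 334 lower genes, sharing 736 calls, and limma voom 498 and 467. Without a filter on low counts 613 were higher and 391 lower. The remaining scalings, filters and the fit of the 8 libraries alone gave 476 to 549 higher and 430 to 472 lower genes. With the replicate block, 599 were higher and 545 lower, and 414 genes were called against Nab2-FLAG in place of 262. The same-numbered control and Atx2-3xFLAG libraries correlated at 0.15, -0.03, 0.00485 and 0.24 in their deviations over 2041 genes. They did not each correlate best with their own number, and the main fit took the numbers as names. Nab2-FLAG libraries were not in that check. Replicate 4 had the highest mean log2 CPM of tested small nucleolar RNAs in control, Atx2-3xFLAG and Nab2-FLAG, at 5.95, 5.80 and 5.53. Whether same-numbered libraries shared something across genotypes was not tested. Of 129 called named genes 40 lost the call under at least 1 alternative. With 601479 to 1091678 counts per library, 3 counts correspond to 2.56 to 5.04 CPM, which limits what can be said of the lowest genes. The comparison with Nab2-FLAG has no value in the fit of 8 libraries.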
